A study of Mus musculus with 16 samples.

Results

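Polycomb repressive complex 2 (PRC2) is represented here by 9 genes, chosen by name: Ezh1, Ezh2, Eed, Suz12, Mtf2, Phf1, Phf19, Jarid2 and Aebp2. All 9 were found once among the 49585 gene identifiers of the deposited tables, and all 9 carried a test in each of the 3 comparisons. Knockdown embryos (6 libraries) had received, as zygotes, double-stranded RNA that targets Suv39h2. LacZ control embryos (6 libraries) had received double-stranded RNA to the bacterial gene LacZ instead, and the remaining 4 libraries came from non-injected embryos. Every embryo came from a DBA father and an F1 mother of C57BL/6J and CBA/H, was cultured in KSOM medium and was collected at the 2-cell stage, and polyadenylated RNA was sequenced with Smart-seq2. The series design speaks of pools of 5 embryos and the extraction label of a single embryo, and the treatment label names Suv39h1 messenger RNA, which the label of what was injected gives to no group. Libraries of a group are not stated to come from separate collections, so p-values measure the spread between these libraries, which may be technical.

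PRC2 places methyl groups on lysine 27 of histone H3, and the trimethylated form, H3K27me3, marks genes held silent through development. Ezh1 or Ezh2 carries the methyltransferase activity and works only when bound to Suz12 and Eed; Eed also reads the finished mark and stimulates the enzyme. Accessory proteins divide the complex into a form with a Polycomb-like protein (Phf1, Mtf2 or Phf19), which binds CpG-rich DNA, and a form with Jarid2 and Aebp2, which engages chromatin carrying ubiquitinated histone H2A. In the early mouse embryo H3K27me3 inherited from the oocyte silences the maternal copy of a small set of imprinted genes. Suv39h2, the target of the knockdown, methylates lysine 9 of the same histone, so the comparisons ask whether PRC2 transcripts differed in embryos with less Suv39h2 messenger RNA.

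The deposited tables give one mean normalized count per gene over all libraries, and for each pair of groups a log2 fold change, its standard error (SE) and the p-value before and after adjustment. By name these are shrunken fold changes, and unshrunken ones, which could be larger, are not given. The intervals and the ratios between groups below therefore describe the shrunken values. A gene is written as called, higher or lower, where the adjusted p of the authors' DESeq2 test was under 0.05. Values of single libraries are not in these tables (0 such columns), so neither the spread within a group nor the depth of a library is known, and groups cannot be checked for overlap. The 3 comparisons come from one model, where the log2 fold changes of the LacZ control and of the knockdown step add up to that from non-injected to knockdown embryos, so they are not independent. The targeted transcript, Suv39h2, stood at -1.95 ± 0.28 (SE) for knockdown over LacZ control in the authors' deposited table (DESeq2 adjusted p = 4.72e-08), and its exons overlap opposite-strand genes over 440 bases. Of the 2-cell markers 9 of 10 were found, all with mean counts of 114 or more, whereas 7 of 10 cumulus and granulosa cell markers had a mean count under 1 and the highest, Cyp19a1, reached 16.1.

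Ezh1 and Ezh2, and Mtf2, Phf1 and Phf19, are families of related genes, so the longest stretch that any pair of their longest coding sequences shares without a mismatch was sought to see whether reads could be confused. The sequences below are from GENCODE vM21 on GRCm38, 5′ to 3′ on the coding strand, with the identical run in capitals and 15 bases of coding sequence on each side in lower case.
Ezh1, with Ezh2: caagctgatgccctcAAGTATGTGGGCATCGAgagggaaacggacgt
Ezh2, with Ezh1: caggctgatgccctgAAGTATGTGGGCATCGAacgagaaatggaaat
Mtf2, with Phf1: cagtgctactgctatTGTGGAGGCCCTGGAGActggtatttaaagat
Phf1, with Mtf2: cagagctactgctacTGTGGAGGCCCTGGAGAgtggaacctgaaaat
Mtf2, with Phf19: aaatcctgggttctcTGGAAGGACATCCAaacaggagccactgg
Phf19, with Mtf2: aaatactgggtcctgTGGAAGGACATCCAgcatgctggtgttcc
Phf1, with Phf19: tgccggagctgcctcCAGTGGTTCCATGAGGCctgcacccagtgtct
Phf19, with Phf1: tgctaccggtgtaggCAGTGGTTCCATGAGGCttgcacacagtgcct
The Ezh1 stretch lies in coding exon sequence at chr11:101192946-101192992 and that of Ezh2 at chr6:47530548-47530594, both on the minus strand. The stretch of Mtf2 shared with Phf1 spans an exon junction, from chr5:108088058-108088089 to chr5:108092061-108092075 on the plus strand. Its counterpart in Phf1 also spans a junction, from chr17:26935366-26935397 to chr17:26935540-26935554 on the plus strand. The Mtf2 stretch shared with Phf19 runs over a junction from chr5:108081185-108081218 to chr5:108086999-108087008, and the Phf19 one, on the minus strand, over chr2:34907091-34907100 and chr2:34911164-34911197. For the last pair Phf1 has it at chr17:26935562-26935608 and Phf19 at chr2:34904082-34904128. The identical run was 17 bases for Ezh1 with Ezh2, for Mtf2 with Phf1 and for Phf1 with Phf19, and 14 bases for Mtf2 with Phf19.

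No 50-base word of one member's transcripts was found in another member's, so a read that matches over 50 bases separates the family members. Words shared with genes outside the complex came mainly from exons on the opposite strand of the same locus, which Smart-seq2 reads, having no strand, cannot assign. Phf1 (chr17:26933052-26937908, plus strand) shares most: 39.3% of its exonic length overlaps exons of Cuta, and 28.3% of its 50-base words occur in Cuta transcripts. Mtf2 (chr5:108065674-108109004, plus strand) meets the protein-coding gene Tmed5 tail to tail over 395 bases, from 108106588 to 108106982, which is 6.93% of its exonic length. Eed (chr7:89954654-89980983, minus strand), Ezh2 (chr6:47530139-47595341, minus strand) and Suz12 (chr11:79993106-80034123, plus strand) overlap non-coding transcripts on the opposite strand over 6.82%, 2.61% and 3.60% of their exonic length. Ezh1 (chr11:101191115-101226463, minus strand), Phf19 (chr2:34893757-34914026, minus strand), Jarid2 (chr13:44729474-44921643, plus strand) and Aebp2 (chr6:140622663-140678472, plus strand) have no exon overlap with another gene, and at most 0.364% of their words occur elsewhere. The sources used here do not give how reads in overlaps were counted.

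**Figure D1:**
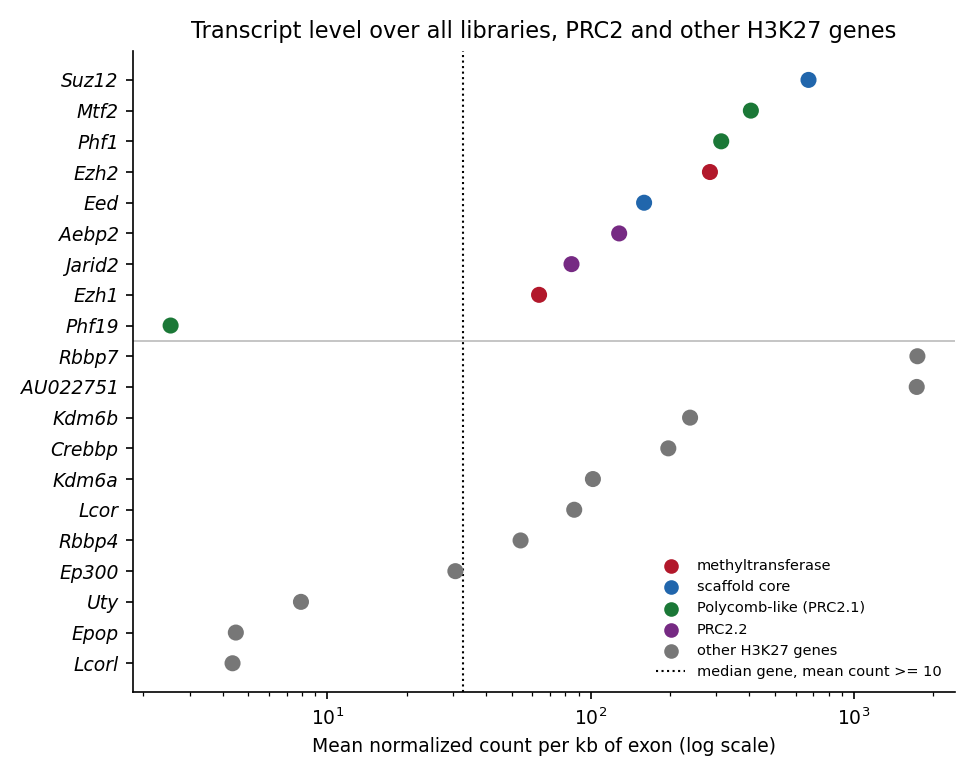
Mean normalized count per kb of exonic length (log scale) for the PRC2 members, above the line, and 11 further genes acting on histone H3 lysine 27, below it; each point is the authors' mean over all libraries, with no error available. The dotted line is the median gene with a mean count of 10 or more; 8 of the 9 members lie above it and Phf19 lies far below.

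By level per kb of exonic length, 8 of the 9 members lay above the median gene with a mean count of at least 10, and Phf19 was scarce. Because levels are means over all 16 libraries without an error, their order is a description, and neighbouring levels cannot be said to differ. Divided by exonic length, the mean normalized count was highest for the scaffold gene Suz12, at 671 per kb, a level above that of 96.8% of the 14800 genes with a mean count of at least 10 and a known exonic length. Mtf2 came next at 405 per kb, followed by Phf1 at 313 per kb and Ezh2 at 283 per kb. How reads in the overlap with Cuta bear on the Phf1 level is unknown. Eed stood at 159 per kb, Aebp2 at 128 per kb, Jarid2 at 84.5 per kb and Ezh1 at 63.6 per kb, all above the median gene at 32.6 per kb. Phf19, the third Polycomb-like gene, had a mean normalized count of 12.8, or 2.54 per kb, which was above only 3.55% of genes.

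Set side by side within each role, the per-kb levels were unequal to different degrees. Of the methyltransferases, Ezh2 exceeded Ezh1 by 4.46-fold. Of the scaffold pair, Suz12 exceeded Eed by 4.21-fold. Mtf2 and Phf1 were within 1.30-fold of each other, and Mtf2 exceeded Phf19 by 160-fold. Aebp2 exceeded Jarid2 by 1.52-fold. Of the histone-binding proteins shared by PRC2 and other chromatin complexes, Rbbp7 had a per-kb level of 1740. It was 32.1-fold that of Rbbp4, at 54.1 per kb. Exonic length here counts every annotated exon of a gene, so all these ratios depend on the annotation. It was 2909 bases for Rbbp7 and 8744 for Rbbp4, whose mean normalized counts were 5060 and 473. The PRC2 inhibitor Ezhip, listed by its older symbol AU022751, had a per-kb level of 1729, above 99.2% of genes and 6.10-fold that of Ezh2.

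**Figure D2:**
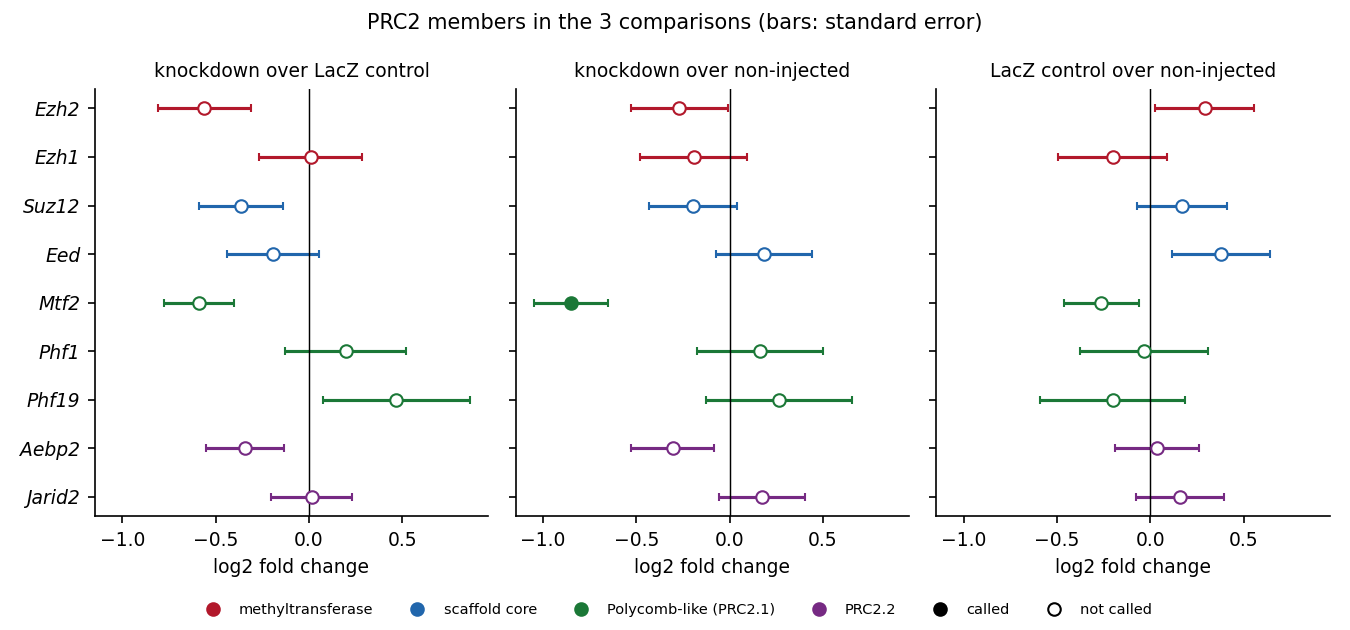
Log2 fold change of each PRC2 member in the 3 comparisons of the authors' deposited tables, with bars of 1 standard error; filled points were called and open points were not. Mtf2 for knockdown over non-injected, at -0.85, is the only filled point.

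Between knockdown and LacZ control embryos, both injected, no PRC2 gene was called, and the members with the lowest fold changes were Mtf2 and Ezh2. DESeq2 gave 0 calls among the 9 members, beside 0.899% of the 15572 genes tested; at an unadjusted p under 0.05, 2 members were lower and 0 higher, beside 14.7% of all genes tested in either direction and 8.07% lower. Of genes with a mean count of at least 100, to which both belong, 13.8% were lower at that p. In RNA from whole embryos, fewer cells holding a transcript and less of it in each cell cannot be told apart. Mtf2, which brings PRC2 to unmethylated CpG-rich DNA, stood at -0.59 ± 0.19 (SE) in the authors' deposited table, a level in knockdown 0.665 times that in LacZ control (p = 0.00206, adjusted p = 0.0869). Its approximate 95% interval, taken as the fold change with 1.96 SE on each side, ran from -0.96 to -0.22. Ezh2, the main methyltransferase by level, stood at -0.56 ± 0.25 in the authors' deposited table (p = 0.0251, adjusted p = 0.255). Among the 7722 genes with a mean count of at least 100, these log2 fold changes ranked at the 7.11 percentile for Mtf2 and the 8.44 percentile for Ezh2, so neither lay outside the range that many genes of that level showed.

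The partners of Ezh2 had smaller fold changes. Suz12 stood at -0.36 ± 0.22 and Eed at -0.19 ± 0.25 in the authors' deposited table for knockdown over LacZ control (adjusted p = 0.452 and 0.785). Ezh1, the alternative methyltransferase, was at 0.01 ± 0.28 in the authors' deposited table, with a 95% interval from -0.53 to 0.55. Of the genes for the form with Jarid2 and Aebp2, Aebp2 was at -0.34 ± 0.21 and Jarid2 at 0.01 ± 0.22 in the authors' deposited table (DESeq2 adjusted p = 0.474 and 0.999). Phf1 stood at 0.20 ± 0.33 and Phf19 at 0.47 ± 0.40 in the authors' deposited table, and both intervals included 0. With 5 members below 0 and 4 above it, the median member was at -0.19, against 0.02 for all genes tested and -0.08 for genes with a mean count of at least 100. With fold changes centred on genes of like mean count, the median member was at -0.04, so it lay close to genes of its level. That the 9 genes were not called does not show equal levels. Estimated from the SE of each, the smallest log2 fold change that this comparison would have called ranged from about 0.66 for Mtf2 to 1.15 for Phf1 and 1.39 for Phf19. These limits are approximate, because the calls rest on the authors' Wald statistic, which can differ from the fold change divided by its SE. At low counts the deposited SE is also no plain measure of spread. It was 0.40 for Phf19 and 0.17 for Hoxa2, a Hox gene with a mean count of only 0.0454. The limit for Phf19 is therefore the least certain.

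Against non-injected embryos, Mtf2 was lower in knockdown embryos, and it was the only member called. Its fold change in the authors' deposited table was -0.85 ± 0.20 (SE; adjusted p = 0.00121), so that the level in knockdown was 0.554 times that in non-injected embryos, with a 95% interval of the log2 fold change from -1.24 to -0.46. One called member of 9 stands beside 15.2% of the 14948 genes tested (7.76% lower) and beside 22.5% of genes with a mean count of at least 100 (13.5% lower). At an unadjusted p under 0.05, 1 of 9 members stands beside 29% of genes tested, so the share of members called is not above the background of this comparison. The Mtf2 value ranked at the 6.02 percentile of genes with a mean count of at least 100. As the fold changes add up, -0.59 of it lies between knockdown and LacZ control and -0.26 ± 0.20 between LacZ control and non-injected embryos in the authors' deposited tables, and DESeq2 called neither step (adjusted p = 0.0869 and 0.965). The difference between the effects of the 2 injections on Mtf2 is the comparison of knockdown with LacZ control itself, which was not called.

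Tmed5, which shares the 395 bases at its tail with Mtf2 and encodes a protein of vesicle transport, was also called lower in knockdown than in non-injected embryos. It stood at -0.74 ± 0.24 in the authors' deposited table (DESeq2 adjusted p = 0.0212), with a mean normalized count of 2443 beside 2310 for Mtf2. Between knockdown and LacZ control Tmed5 was at -0.54 ± 0.23, and between LacZ control and non-injected embryos at -0.20 ± 0.24, in the authors' deposited tables (DESeq2 adjusted p = 0.221 and 0.998). The part of the shared bases in the Mtf2 values was not tested. Of the 9 measured 2-cell markers 4 were called higher in knockdown than in non-injected embryos and 5 were not called, and of 7 oocyte markers 4 were called higher and 3 were not, beside 1108 of the 14948 genes tested that were called higher. The median log2 fold changes of these lists were 0.75 and 0.72 in knockdown over non-injected. In LacZ control over non-injected they were 0.59 and 0.55, with 2 of the 2-cell and 0 of the oocyte markers called, beside 0.792% of all genes. At an unadjusted p under 0.05, 4 and 3 were higher there, beside 7.39% of all genes in either direction. In knockdown over LacZ control the medians were -0.06 and 0.13, with 0 called in either list, beside 0.899% of all genes. At an unadjusted p under 0.05 there were 1 and 0, beside 14.7% of all genes. Over all libraries the mean counts of these markers sum to 7249 and 19257, and those of the 10 cumulus and granulosa markers to 24.3, with Lhcgr at 0. Their part in the Mtf2 value was not tested.

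The other 8 members were not called for knockdown over non-injected. Ezh2 was at -0.27 ± 0.26, Suz12 at -0.19 ± 0.24 and Ezh1 at -0.19 ± 0.29 in the authors' deposited table. Aebp2, with the smallest p after Mtf2, was at -0.31 ± 0.22 in the authors' deposited table (DESeq2 adjusted p = 0.395). Eed stood at 0.18 ± 0.26, Jarid2 at 0.17 ± 0.23, Phf1 at 0.16 ± 0.34 and Phf19 at 0.27 ± 0.39 in the authors' deposited table. The overlapping gene Cuta was called higher, at 0.89 ± 0.26 in the authors' deposited table (DESeq2 adjusted p = 0.0109). The Phf1 value thus stands over a neighbour that moved, and whether it holds any Cuta reads was not tested. In this comparison the median member was at -0.19, against 0.05 for all genes tested and -0.08 for genes with a mean count of at least 100. Centred on genes of like mean count it was at -0.04. By the same approximate estimate from the SE, log2 fold changes from about 0.53 for Mtf2 to 0.90 for Phf1 and 1.04 for Phf19 would have been called.

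**Figure D3:**
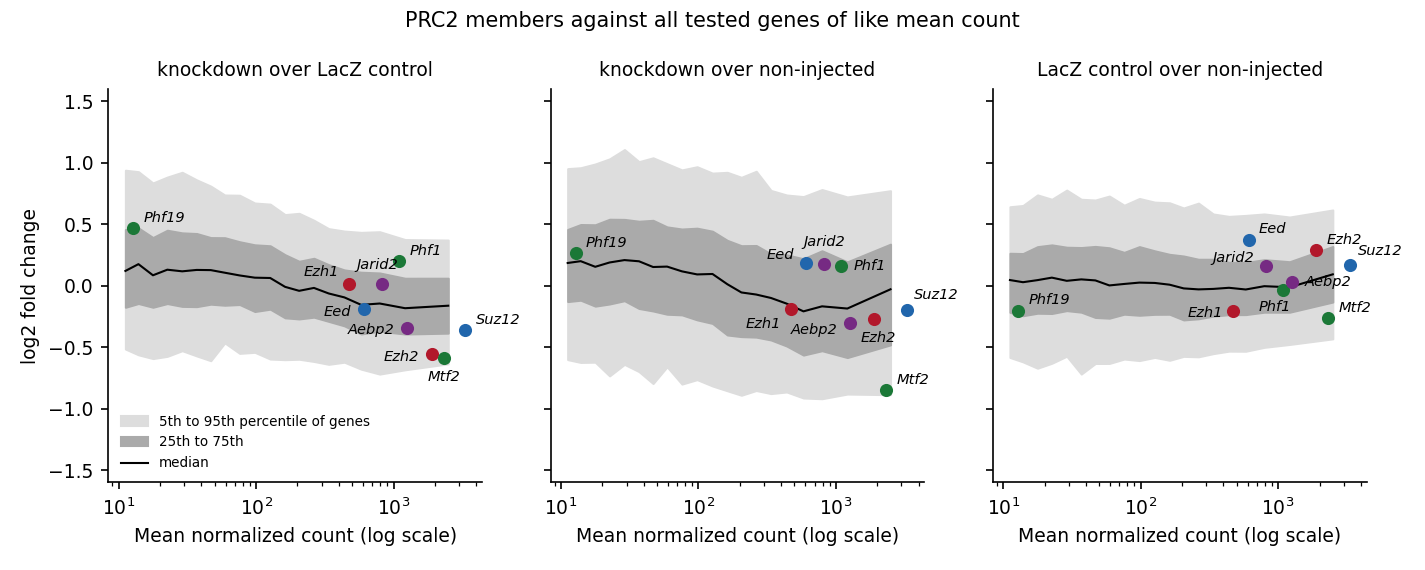
Log2 fold change against mean normalized count (log scale) for the 9 PRC2 members, coloured by role as in the plot of levels, over the spread of all tested genes with a mean count of at least 10, taken in 20 bins of equal gene number. The bands span the 5th to 95th and 25th to 75th percentiles and are drawn up to the median count of the last bin, which also holds Suz12. Mtf2 lies near the lower edge of the outer band in both knockdown comparisons, and Ezh2 lies close to Mtf2 for knockdown over LacZ control. The other members lie within the spread of their bins.

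Between LacZ control and non-injected embryos no PRC2 gene was called. There were 0 DESeq2 calls among the 9 members, beside 0.792% of the 29288 genes tested, and 0 at an unadjusted p under 0.05, beside 7.39% of genes. Eed had the largest positive fold change, 0.38 ± 0.26 in the authors' deposited table (95% interval -0.14 to 0.89, adjusted p = 0.917). Ezh2 was at 0.29 ± 0.26 and Suz12 at 0.17 ± 0.24 in the authors' deposited table. Of the other members, Jarid2 stood at 0.16 ± 0.24, Aebp2 at 0.03 ± 0.22, Phf1 at -0.04 ± 0.34, Ezh1 at -0.20 ± 0.29 and Phf19 at -0.20 ± 0.39 in the authors' deposited table. The sign of the Aebp2 value changed when fold changes were centred on genes of like mean count. The median member was at 0.03, against 0.00 for all genes tested.

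Whether members differ in their pattern over the groups was not tested. Set against non-injected embryos, Ezh2 was at -0.27 in knockdown and 0.29 in LacZ control embryos, so non-injected embryos lay between the 2 injected groups. Mtf2 was at -0.85 in knockdown and -0.26 in LacZ control embryos, below non-injected in both. Eed and Suz12 had their highest value in LacZ control embryos, like Ezh2, at 0.38 and 0.17, whereas Ezh1 was at -0.19 in knockdown and -0.20 in LacZ control embryos. All of these are from the authors' deposited tables, and, apart from Mtf2 for knockdown over non-injected, none was called.

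Among 11 other genes that act on histone H3 lysine 27 or on PRC2, DESeq2 called none in any comparison, beside 0.899% of all genes between knockdown and LacZ control, 15.2% between knockdown and non-injected and 0.792% between LacZ control and non-injected embryos. Epop, which links PRC2 to elongin, was the only one with an unadjusted p under 0.05, and only in the comparisons with knockdown, where 14.7% (against LacZ control) and 29% (against non-injected) of all genes had one. Epop stood at 1.06 ± 0.40 for knockdown over LacZ control and 1.15 ± 0.40 for knockdown over non-injected in the authors' deposited tables (DESeq2 adjusted p = 0.217 and 0.0525), on a mean normalized count of 10.4. Ezhip (AU022751) was at -0.18 ± 0.26 in knockdown over LacZ control, at 0.31 ± 0.28 in knockdown over non-injected and at 0.49 ± 0.28 in LacZ control over non-injected, per the authors' deposited tables. The demethylase gene Kdm6b, whose product removes the mark, stood at -0.18 ± 0.26, 0.30 ± 0.27 and 0.47 ± 0.28 in the same comparisons of the authors' deposited tables, and its relative Kdm6a at -0.21 ± 0.22, 0.02 ± 0.23 and 0.23 ± 0.23. Rbbp7 was at -0.24 ± 0.23, -0.01 ± 0.24 and 0.23 ± 0.25 in the authors' deposited tables. The acetyltransferase gene Ep300 stood at -0.20 ± 0.24, -0.46 ± 0.26 and -0.26 ± 0.26, and Crebbp at 0.07 ± 0.21, -0.03 ± 0.22 and -0.10 ± 0.23 in the authors' deposited tables. Rbbp4, Lcor, Lcorl and Uty lay between -0.33 and 0.25 in all 3 comparisons of the authors' deposited tables. Exons of Rbbp4, Lcorl, Kdm6b and Rbbp7 overlap opposite-strand genes over 1578, 944, 286 and 174 bases.

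**Figure D4:**
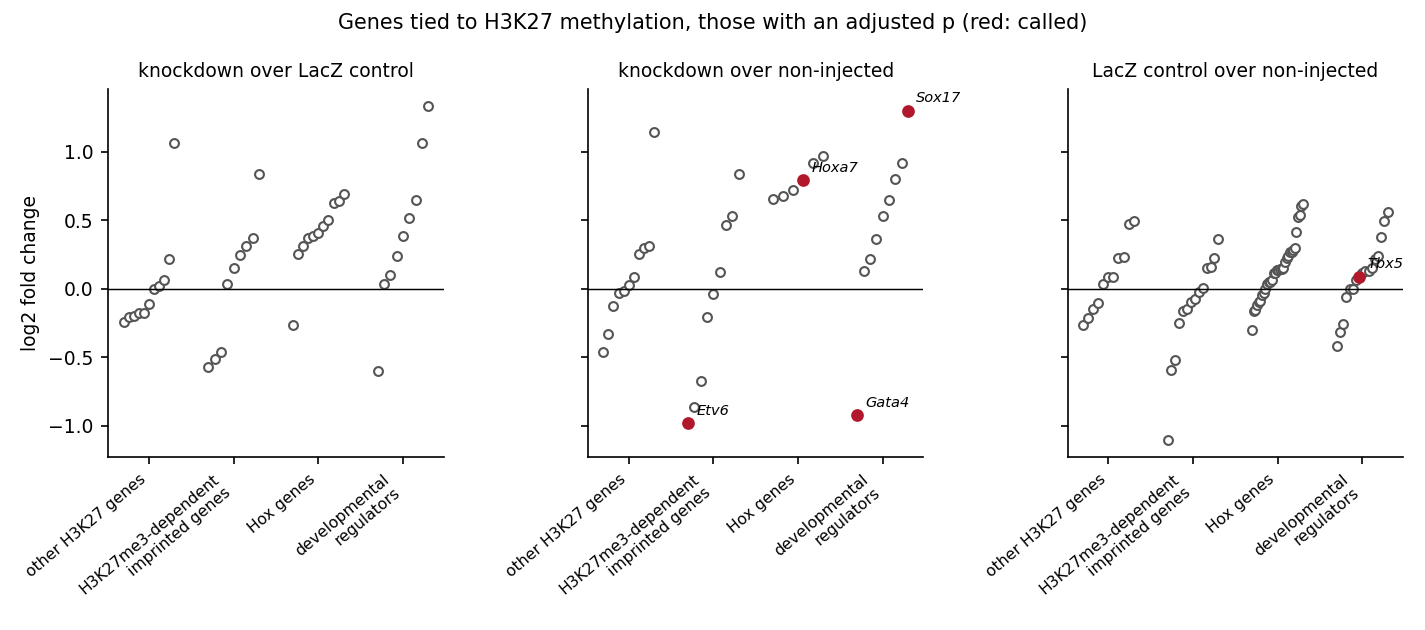
Log2 fold changes of 4 lists of genes tied to H3K27 methylation, one panel per comparison, for members of each list with a deposited adjusted p; red points were called. Etv6, Hoxa7, Sox17 and Gata4 are the red points for knockdown over non-injected, and Tbx5 is the one for LacZ control over non-injected.

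Genes known as imprinted through maternal H3K27me3 had 1 call over the 3 comparisons. Of 14 such genes, 9 had an adjusted p in the comparisons with knockdown. DESeq2 called 0 of 9 for knockdown over LacZ control, beside 0.899% of all genes, and 2 of 9 had an unadjusted p under 0.05, beside 14.7%: 1 was higher and 1 lower (Slc38a4, 0.84 ± 0.40, and Jade1, -0.51 ± 0.24, in the authors' deposited table). For knockdown over non-injected, 1 of 9 was called, beside 15.2% of all genes: Etv6, a transcription factor gene, was lower at -0.98 ± 0.35 in the authors' deposited table (DESeq2 adjusted p = 0.0486). At an unadjusted p under 0.05, 1 of these 9 was higher and 3 were lower, beside 29% of all genes in either direction. Gab1, a signalling adaptor with a placental role, and Jade1, part of a histone acetyltransferase complex, were just short of a call, at -0.86 ± 0.32 and -0.68 ± 0.25 in the authors' deposited table (DESeq2 adjusted p = 0.0504 for each). Gab1 was at -1.11 ± 0.32 for LacZ control over non-injected and 0.24 ± 0.31 for knockdown over LacZ control in the authors' deposited tables (DESeq2 adjusted p = 0.0746 and 0.742). Among the genes with an adjusted p between knockdown and LacZ control, Etv6 came after Jade1 and Slc38a4 by p, at -0.46 ± 0.34 in the authors' deposited table. Between LacZ control and non-injected embryos DESeq2 called 0 of 14, beside 0.792% of all genes, and 2 were lower at an unadjusted p under 0.05, beside 7.39% in either direction. By p, Gab1 was followed there by Mbnl2 at -0.60 ± 0.34 and Etv6 at -0.52 ± 0.36 in the authors' deposited tables. The tested genes of the list had a median of 0.15 between knockdown and LacZ control, -0.04 between knockdown and non-injected and -0.08 between LacZ control and non-injected embryos. Exons of Etv6, Gab1 and Jade1 overlap a gene on the opposite strand over 135, 266 and 290 bases.

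Hox genes, the best known PRC2 targets, were scarce with 1 exception. Of 39 Hox genes, 16 had a mean count under 1 and 6 reached 10, and Hoxa7 alone, at 761, held most of the summed mean count of 987. For knockdown over non-injected 1 of 6 tested Hox genes was called, beside 15.2% of all genes: Hoxa7 was higher, at 0.79 ± 0.25 in the authors' deposited table (DESeq2 adjusted p = 0.0147), while it was at 0.25 ± 0.23 between knockdown and LacZ control and at 0.54 ± 0.25 between LacZ control and non-injected embryos in the authors' deposited tables (DESeq2 adjusted p = 0.643 and 0.560). At an unadjusted p under 0.05, 3 of the 6 were higher for knockdown over non-injected and 0 lower, beside 29% of all genes in either direction. Hoxa7 overlaps exons on the opposite strand over 586 bases and Hoxb2 over 953 bases. Between knockdown and LacZ control DESeq2 called 0 of the 11 with an adjusted p, beside 0.899% of all genes, with 0 of them at an unadjusted p under 0.05, beside 14.7%. Of these 11, the smallest p belonged to Hoxb13 at 0.64 ± 0.39, Hoxa9 at 0.69 ± 0.40 and Hoxb2 at 0.50 ± 0.39 in the authors' deposited table. Between LacZ control and non-injected embryos DESeq2 called 0 of 32, beside 0.792% of all genes. Hoxb4, at 0.62 ± 0.33 in the authors' deposited table, and Hoxa7 were the 2 higher at an unadjusted p under 0.05, beside 7.39% of all genes in either direction. Hoxd1 came after them by p, at 0.52 ± 0.35 in the authors' deposited table (p = 0.085). The tested Hox genes had a median of 0.41 between knockdown and LacZ control, 0.76 (6 genes) between knockdown and non-injected and 0.14 between LacZ control and non-injected embryos. Low genes were tested only in part, and in both knockdown comparisons their fold changes lay above those of abundant genes in general, as the plot against mean count shows.

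Of 22 developmental regulators whose promoters carry H3K27me3 in embryonic stem cells, 9 had an adjusted p in the knockdown comparisons. For knockdown over non-injected 2 of 9 were called, beside 15.2% of all genes. At an unadjusted p under 0.05, 2 were higher and 1 was lower there, beside 29% of all genes in either direction. Gata4, a transcription factor of the primitive endoderm and heart, was called lower in knockdown than in non-injected embryos, at -0.92 ± 0.28 in the authors' deposited table (DESeq2 adjusted p = 0.0148), on a mean count of 402. Sox17, a factor of the endoderm, was called higher at 1.30 ± 0.38 in the authors' deposited table (DESeq2 adjusted p = 0.0195), on a mean count of 12.3, and overlaps opposite-strand exons over 804 bases. For knockdown over LacZ control DESeq2 called 0 of 9, beside 0.899% of all genes, with 1 higher and 1 lower at an unadjusted p under 0.05, beside 14.7%: Pax3 at 1.34 ± 0.40 and Gata4 at -0.60 ± 0.27 in the authors' deposited table (DESeq2 adjusted p = 0.0711 and 0.263). Among the 9 with an adjusted p Sox17 was the next by p, at 1.06 ± 0.39 in the authors' deposited table (DESeq2 p = 0.0743, adjusted p = 0.394). That p is larger than the fold change of Sox17 divided by its SE would give. For LacZ control over non-injected 1 of 17 was called, beside 0.792% of all genes: Tbx5 (DESeq2 adjusted p = 3.01e-10), although its fold change in the authors' deposited table was 0.09 ± 0.27 on a mean count of 2.69. The deposited Wald statistic of Tbx5 was 7.42, against 0.329 for its fold change divided by its SE, so the call does not follow from the deposited size. For Mtf2 the same pair of values for knockdown over non-injected was -4.23 and -4.28. Tbx5 had no adjusted p for knockdown over non-injected and so could not be called there. Its unadjusted DESeq2 p in that comparison was 9.99e-17, at 0.47 ± 0.28 in the authors' deposited table.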

How the data were processed

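Polyadenylated RNA was sequenced from 16 libraries in 3 groups. Per the submitters' processing notes, STAR 2.5.2b, SAMtools, HTSeq 0.9.1 and DESeq2 1.18.1 were used with GRCm38.p5; RUVSeq and shrinkage of fold changes appear in table names alone. Per the file headers, each deposited gene table holds a mean normalized count (a signal in arbitrary units), a log2 fold change, its standard error, a Wald score and the p-value before and after adjustment. The library depths are unknown. Tests are the authors' own. Members were matched by GENCODE vM21 symbol (49326 of 49585 identifiers matched). Exonic lengths, overlaps, 50-base words (both strands) and identical runs were computed in Python 3.11.15 with pandas 2.3.3, NumPy 2.4.6 and SciPy 1.17.1. The smallest callable fold change is an estimate, the SE times the normal quantile of the largest p called, whereas the calls rest on the deposited Wald score. Calls were recomputed with Benjamini-Hochberg adjustment over every gene with a p-value, over genes with a mean count of at least 10 or 100, with centring, and with a fold change of at least 0.5; the call function was tested on simulated data. Named were all members and 11 pathway genes, and of 3 lists (imprinted, Hox, developmental) the called genes, or the 3 of smallest p where none was called; others near the threshold were named after their values were seen. The members and lists were chosen with earlier results of these data known. Sequences of proteins and the repeat tables were not used here.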

Additional observations from a re-analysis of the deposited data

How the results depend on the processing

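Values per library would be needed to leave out a replicate or to test a batch, so neither was run. No paired analysis was possible because the tables hold comparisons of groups and no column of a single library. The number of members called was 0, 1 and 0 for knockdown over LacZ control, knockdown over non-injected and LacZ control over non-injected, and it kept these values under all 7 recomputed settings; 1 of them, a p from the fold change divided by its SE, was chosen after seeing the data. Restricted to the 4 members without an opposite-strand overlap, the count for knockdown over non-injected was 0, since Mtf2 overlaps Tmed5. Over the 7 settings the adjusted p of Mtf2 ranged from 0.00078 to 0.00306 for knockdown over non-injected and from 0.0657 to 0.265 for knockdown over LacZ control. Of 186 recomputed values of single members 185 kept direction and side of the threshold; Aebp2 for LacZ control over non-injected became -0.0085 when centred on genes of like mean count, where its fold change was 0.03. The median member, left without 1 member in turn, ranged from -0.27 to -0.09 for knockdown over LacZ control, -0.19 to -0.02 for knockdown over non-injected and -0.001 to 0.10 for LacZ control over non-injected, and with centring on like mean counts it was -0.04, -0.04 and -0.0085. Over all genes the split of calls for knockdown over LacZ control was 57 higher and 83 lower, 149 and 47 when centred on genes with a mean count of at least 100, 70 and 47 centred on like mean counts, and 33 and 128 among genes of at least 100 alone; for knockdown over non-injected 1108 higher and 1160 lower became 1539 and 866 when centred on genes with a mean count of at least 100; for LacZ control over non-injected 232 calls (155 higher, 77 lower) became 62 and 73 at a mean count of at least 10 and 100, 101 with a log2 fold change of at least 0.5, 20 (16 higher, 4 lower) centred on genes with a mean count of at least 100, 12 centred on like mean counts and 20 by fold change over SE; the cause was not tested.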
